A study of Saccharomyces cerevisiae with 14 samples.

Results

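The immediate response of *Saccharomyces cerevisiae* to 5-hydroxymethylfurfural (HMF) was taken from 4 of the 14 arrays of the series: 2 from cultures sampled 10 min after HMF was added and 2 from untreated cultures of the same time. The arrays of later times served for the spread between replicates and for a comparison in time. All cultures were of strain NRRL Y-12632 in synthetic complete medium, and HMF was given at 30 mM. Each array set test RNA, labeled with Cy3, against untreated RNA of 0 min, labeled with Cy5. The labels call the 2 arrays of a group biological replicates, and they state no pairing between HMF and control. Equal amounts of total RNA were labeled, so a value is a gene's share of the RNA, and a loss of transcripts cannot be told apart from a gain of the others.

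Every array was centred on the median log2 ratio of its 6387 open reading frames, called genes here. A value of a single array below is this centred log2 ratio to 0 min. A difference is the mean of the 2 HMF arrays minus the mean of the 2 control arrays, in log2, with its moderated standard error (SE) from limma. Before centring the array medians were 0.56 and -0.32 with HMF against 0.28 and 1.29 in the control, so that on the deposited scale each difference is lower by 0.67. A difference is therefore relative to the median gene. The SE and p of a difference came from a fit of all 14 arrays. They therefore pool the spread between replicates at later times with 2 arrays per group, and do not rest on these 4 arrays alone. A gene was called where its Benjamini-Hochberg adjusted p over all genes was at most 0.05.

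HMF is an aldehyde that forms when sugars of plant biomass are heated in acid. Yeast reduces its aldehyde group to an alcohol with reductases that use NADPH or NADH. Drug pumps under Pdr1p and Pdr3p, oxidant defence under Yap1p, chaperones under Hsf1p and the proteasome under Rpn4p are the known defences of yeast against reactive compounds, and ribosome production is known to be cut back soon after many kinds of stress.

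After 10 min 137 genes were called, 2.14% of those tested. Of these, 41 were higher with HMF (0.642% of all genes) and 96 were lower (1.50%). Over all genes 3217 differences were positive and 3170 negative. These shares are the background of the list counts below. Without adjustment 442 genes were higher and 690 lower at p of at most 0.05, which is 6.92% and 10.8% of all genes. The median size of the called differences was 1.52 in the higher genes and -1.50 in the lower ones, and 133 of the 137 differed at least 2-fold. In the called genes both HMF arrays lay on one side of both control arrays, which was true of 1214 genes with HMF above (19.0% of all genes) and 1406 with HMF below (22.0%). The HMF mean lay farther from 0 min than the control mean in 41 of 41 higher genes and in 95 of 96 lower ones, the exception being *STE18*. Over all genes tested it did so in 4486 of 6387.

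**Figure D1:**
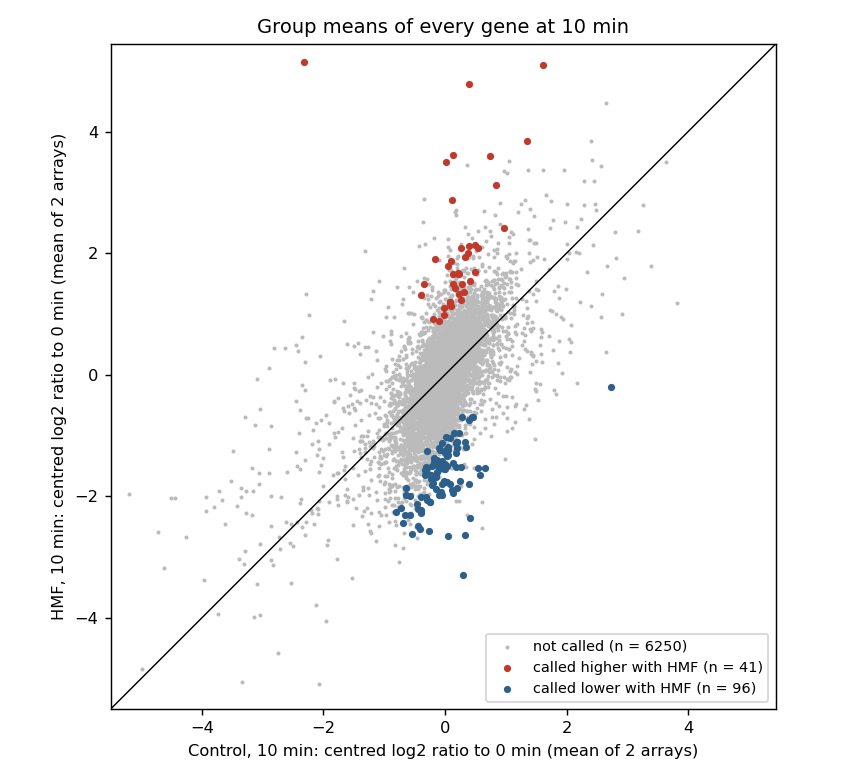
Each point is a gene, placed by its mean centred log2 ratio to 0 min in the 2 control arrays (horizontal) and the 2 HMF arrays (vertical) at 10 min, with the diagonal where both are equal. The 41 genes called higher (red) and the 96 called lower (blue) lie mostly near 0 on the control axis, and many gray points lie as far from the diagonal but were not called.

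The count of calls rested on few arrays. It was 16 without replicate 1 of HMF, 11 without replicate 2 of HMF, 110 without replicate 1 of the control and 28 without replicate 2 of the control. Among the 137 genes, 8 were called whichever of the 4 arrays was left out, among them *PDR5*, *ARI1*, *CHA1*, *GRE2*, *ARG3*, *ALD5* and *HOM3*. All 137 differences kept their sign in each of these fits, which was fixed in advance because their HMF and control arrays do not overlap. The scale mattered as well. Higher genes made up 29.9% of the calls after centring. On the deposited values they were 6 of 43 calls, and after quantile normalization 6 of 10, or 60.0%. With the 4 arrays at 10 min alone in the fit no gene was called, while 678 passed 0.05 in limma before adjustment.

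The 2 control arrays correlated less than the 2 HMF arrays. Across genes, which are not independent replicates, Pearson's r was 0.645 between the HMF arrays and 0.393 between the control arrays. It was 0.56 between the arrays numbered 1 and 0.53 between those numbered 2. The typical SD of a gene was 0.29 between the HMF arrays and 0.32 between the control arrays.

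Aldehyde reductases held the highest difference of the experiment. *ADH7*, an NADPH-dependent alcohol dehydrogenase with a broad range of aldehydes, stood at 4.73 and 5.56 on the HMF arrays and at -3.39 and -1.26 on the control arrays. All 4 values were far from 0, the control arrays lying below 0 min. The difference was 7.47 ± 0.79 (SE, adjusted p = 0.00599), or 177-fold, and the drop of the control from 0 min is part of it. It ran from 6.40 to 8.53 with single arrays left out, and without replicate 2 of HMF it was not called (adjusted p = 0.062).

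*ARI1* encodes an NADPH-dependent reductase of aldehydes. It stood at 3.72 and 3.28 on the HMF arrays against 0.06 and -0.03 on the others, a difference of 3.48 ± 0.28 (adjusted p = 0.00306). *GRE2*, a methylglyoxal reductase of the same family, was at 3.01 and 2.76 with HMF against 0.20 and 0.03 in the control, which gave 2.77 ± 0.28 (adjusted p = 0.00599). In both genes the control arrays stayed near 0 min and the HMF arrays were tightly spaced.

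Most other genes of aldehyde metabolism did not move with these 3. Of 31 measured members of the list, 3 were called higher and 1 lower (0.642% and 1.50% of all genes). Their median difference was 0.28 against 0.01 over all genes (-0.38 and -0.66 on the deposited values). *OYE3*, an NADPH oxidoreductase of the old yellow enzyme family, had 2.58 and 2.29 with HMF but 0.95 and -0.31 in the control, and its difference of 2.11 ± 0.77 was not called (adjusted p = 0.20). *ADH6*, a close relative of *ADH7*, had a difference of -0.69 (adjusted p = 0.22). The member called lower was *ALD5*, a mitochondrial aldehyde dehydrogenase, at -2.10 and -1.81 with HMF against 0.24 and 0.03 in the control (-2.09 ± 0.21, adjusted p = 0.00599).

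Genes under Pdr1p and Pdr3p, among them multidrug transporters, were the list with the highest median. The lists were drawn up with earlier results of these data known, which can favor positive differences here. All 17 measured members had positive differences (3217 of all 6387 genes did), with a median of 1.42. Of the 17, 6 were called higher (0.642% of all genes) and none lower. On the deposited values the median was 0.76 and 1 was called. *PDR5*, the main plasma membrane drug pump of the ATP-binding cassette (ABC) type, was at 4.81 and 4.76 on the HMF arrays and at 0.08 and 0.70 on the control arrays. Its difference was 4.39 ± 0.38 (adjusted p = 0.00334), or 21.0-fold, with no overlap.

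*RSB1*, a sphingoid base transporter or its regulator, had 4.18 and 3.53 with HMF against 2.01 and 0.67 in the control (2.51 ± 0.51, adjusted p = 0.048). *PDR15*, an ABC pump close to Pdr5p, had 2.90 and 3.36 against 1.08 and 0.58 (2.30 ± 0.43, adjusted p = 0.034). In both, the control cultures had risen above 0 min too, and replicate 1 of the control more than replicate 2. The ABC pumps *SNQ2* (1.73) and *YOR1* (1.64) and *YGR035C* (1.84), of unknown function, were also called higher.

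Among the members that did not pass, the polyamine exporters *TPO1* (1.98, adjusted p = 0.070) and *TPO4* (1.42, adjusted p = 0.061) came closest, while *PDR10* was at 0.18. Transporters outside that list were mixed. Of 18, the sterol importer *PDR11* was called (1.43 ± 0.27, adjusted p = 0.038), and *PDR12*, the weak acid pump under War1p, had 2.88 and 2.54 against -0.16 and 0.51 without being called (2.54 ± 0.58, adjusted p = 0.061). The median of these 18 was 0.05. Without replicate 1 or replicate 2 of HMF, or replicate 2 of the control, 1 of the 17 genes under Pdr1p and Pdr3p was called, and 4 without replicate 1 of the control.

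Proteasome subunits moved as a narrow block. All 33 measured genes of the core and regulatory particles had HMF arrays above both control arrays (19.0% of all genes did). At 0.05 before adjustment 31 were higher (6.92% of all genes), and 15 were called higher (0.642% of all genes). Their differences ran from 0.73 to 1.45 with a median of 1.09. The list stood at a median of 1.17 and 1.37 on the HMF arrays and of 0.13 and 0.27 on the control arrays.

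The highest subunits were *PRE7*, of the core particle, at 1.44 and 1.90 with HMF against 0.07 and 0.38 in the control (1.45 ± 0.22, adjusted p = 0.022), and *RPT2*, an ATPase of the base, at 1.44 ± 0.27 (adjusted p = 0.037). The lowest of the 33 was *SEM1* of the lid at 0.73. The other called subunits were *PRE2*, *PRE4*, *PRE5*, *PRE6*, *PRE8*, *PUP3* and *SCL1* of the core and *RPN2*, *RPN3*, *RPN6*, *RPN9*, *RPT3* and *RPT4* of the regulatory particle, between 0.97 and 1.36. The calls were lost with fewer arrays: 1 subunit was called without replicate 1 of the control and none without any of the other 3 arrays, while the median stayed between 1.01 and 1.13. On the deposited values no subunit was called and the median was 0.42.

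Of 28 genes of proteasome assembly and the ubiquitin pathway, 2 were called higher (0.642% of all genes) and the median was 0.70. *ECM29*, which tethers the core to the regulatory particle, had 2.01 and 2.15 with HMF against 0.13 and 0.40 in the control (1.81 ± 0.21, adjusted p = 0.011). *CUZ1*, a zinc finger protein that binds the proteasome and Cdc48p, had 1.64 and 1.92 against -0.09 and 0.18 (1.73 ± 0.22, adjusted p = 0.014). *UBI4*, the polyubiquitin gene, was at -0.01.

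**Figure D2:**
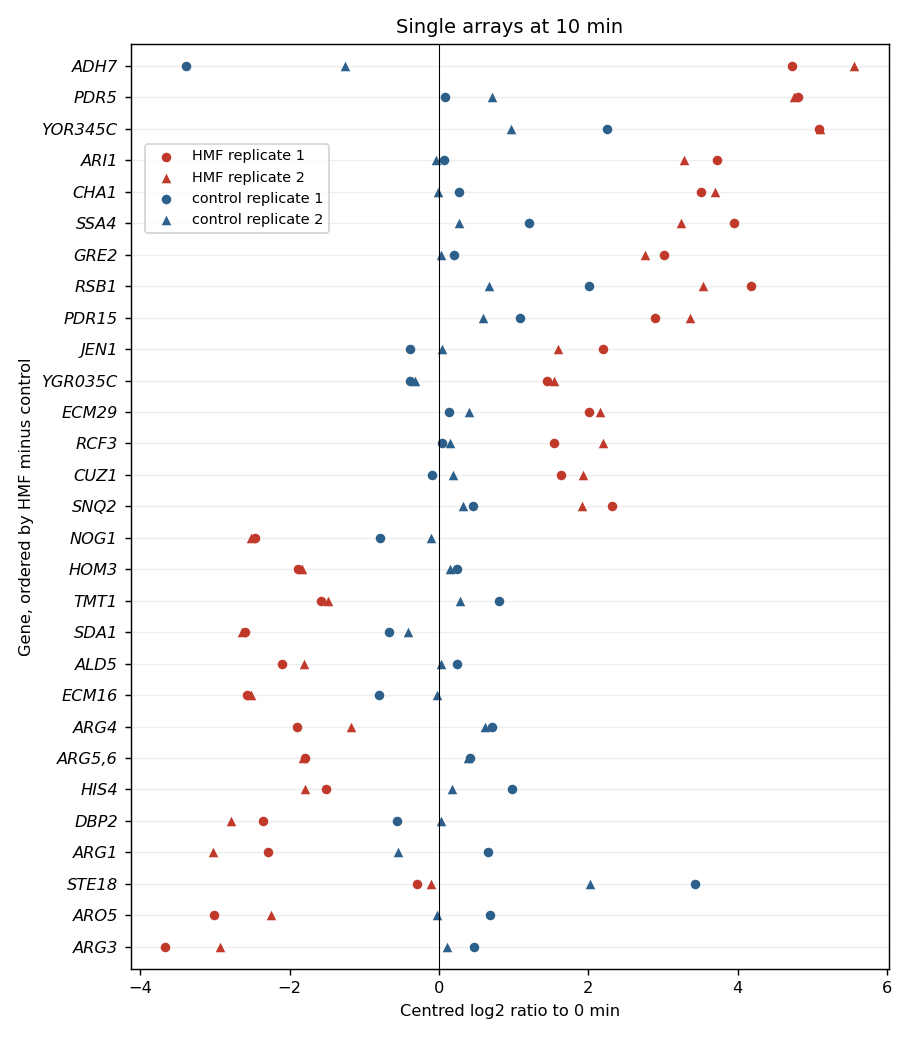
The 4 arrays at 10 min for the 15 highest called differences and 14 of the 15 lowest, with the centred log2 ratio to 0 min on the horizontal axis, HMF in red and control in blue, and circles and triangles for replicates 1 and 2. HMF and control points are apart in each gene, as the choice of genes required. The control points of *ADH7* lie below 0, and in *STE18* it is the control points that lie far from 0.

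Chaperone genes were split. Of 34 measured, 3 were called higher and none lower (0.642% and 1.50% of all genes). The median was 0.50 (-0.17 on the deposited values). *SSA4*, a stress-induced cytosolic Hsp70, was at 3.95 and 3.24 with HMF against 1.21 and 0.26 in the control (2.86 ± 0.38, adjusted p = 0.016). *CPR6*, a cyclophilin that binds Hsp90, and *SGT2*, which takes part in the delivery of tail-anchored proteins, followed at 1.60 ± 0.27 and 1.05 ± 0.19. The small heat shock gene *HSP26* had 3.45 and 3.18 against 1.37 and 0.68 and missed the limit (2.29 ± 0.51, adjusted p = 0.055).

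Other chaperones lay on the opposite side. *SSB1* and *SSB2*, near-identical Hsp70 genes whose products bind chains leaving the ribosome and whose probes may not tell them apart, were both at -0.98 (adjusted p = 0.058 and 0.075). *APJ1*, an Hsp40, was at -1.54 (adjusted p = 0.075) and *BTN2* at -1.65 (adjusted p = 0.33). None of the 3 calls was kept without replicate 1 or replicate 2 of HMF, and 1 chaperone was called when either control array was left out in turn.

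The general stress genes under Msn2p and Msn4p gave no call. Of 35 measured, none passed 0.05 even before adjustment, and the median difference was 0.26 (-0.41 on the deposited values). Their median was 1.11 and 0.78 on the HMF arrays, and 1.27 and 0.08 on the 2 control arrays. Replicate 1 of the control thus lay above both HMF arrays and replicate 2 near 0 min, and the median difference was -0.31 without replicate 2 of the control and 0.91 without replicate 1. *HSP12* had the highest difference of the list, 0.89 ± 0.40 (adjusted p = 0.30).

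Oxidant defence genes gave no call either. Of 30, 6 were higher and 1 lower at 0.05 before adjustment (6.92% and 10.8% of all genes). Their median was 0.35 (-0.32 on the deposited values). *ECM4*, a glutathione transferase, had 3.46 and 0.86 with HMF against 0.58 and -0.03 (1.89 ± 0.78, adjusted p = 0.26), and its difference was 0.58 without replicate 1 of HMF and 3.19 without replicate 2. The glutathione synthetase gene *GSH2* was at -1.15 (adjusted p = 0.094). The 11 genes of the pentose phosphate pathway, a main source of NADPH, had a median of -0.29 and no call.

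*CHA1*, a serine and threonine deaminase induced by these amino acids, had the lowest adjusted p of the experiment. The HMF arrays were at 3.51 and 3.70, the control arrays at 0.26 and -0.01, and the difference was 3.48 ± 0.24 (adjusted p = 0.00176), or 11.2-fold. Among 15 genes of amino acid breakdown it was the only call, and the median of the list was 0.90. The proline oxidase *PUT1* had 2.29 and 1.99 against -0.01 and -0.65 (2.47 ± 0.79, adjusted p = 0.14), and the arginase *CAR1* had 1.81 and 1.49 against 0.48 and -0.41 (1.61 ± 0.38, adjusted p = 0.063).

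Outside the lists, 9 genes were called higher. Some of these, of which *ADR1* and *CYB2* are named after their values were seen, belong to the use of lactate and other nonfermentable carbon. *JEN1*, a lactate and pyruvate permease, was at 2.20 and 1.60 with HMF against -0.38 and 0.04 in the control (2.07 ± 0.33, adjusted p = 0.024). *ADR1*, an activator of glucose-repressed genes, had 1.20 and 1.41 against -0.82 and 0.04 (1.69 ± 0.33, adjusted p = 0.039). *CYB2*, the mitochondrial lactate dehydrogenase, had 1.63 and 1.75 against 0.67 and 0.31 (1.20 ± 0.25, adjusted p = 0.049). The HMF arrays were above the control arrays in all 3, as in every gene called higher.

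In the nuclear genes of the respiratory chain, 35 of 36 differences were positive (3217 of 6387 over all genes). The median was 0.43 (-0.24 on the deposited values), and none was called. *CYC7*, the minor isoform of cytochrome c, was highest, at 2.02 and 2.69 against 1.12 and 0.37 (1.62 ± 0.35, adjusted p = 0.052). The 16 mitochondrially encoded frames had a median of -0.15. *RCF3*, which takes part in respiratory supercomplexes, was called at 1.78 ± 0.25 (adjusted p = 0.018). The reading frame *YOR345C*, which the reference annotation does not pair with a symbol, was at 5.09 on both HMF arrays and at 2.26 and 0.96 in the control (3.48 ± 0.66, adjusted p = 0.037). Its differences at 30, 60 and 120 min were 0.36, 2.13 and -0.33. After quantile normalization it was not called (limma, adjusted p = 0.19).

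Of the 96 genes called lower, 15 belonged to amino acid synthesis, 23 to ribosome biogenesis and 42 to none of the lists. Arginine synthesis held the lowest difference of the experiment. All 10 measured genes of the pathway had HMF arrays below both control arrays (22.0% of all genes did). Of the 10, 6 were called lower (1.50% of all genes), and the median was -1.96. With single arrays left out 2 to 4 were called: 2 without replicate 1 of HMF, 3 without replicate 2 of HMF and 4 without either control array.

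*ARG3*, ornithine carbamoyltransferase, was at -3.67 and -2.94 with HMF against 0.47 and 0.11 in the control, a difference of -3.59 ± 0.36 (adjusted p = 0.00599). *ARG1*, argininosuccinate synthetase, had -2.29 and -3.03 against 0.66 and -0.55 (-2.71 ± 0.45, adjusted p = 0.027). The control arrays of these genes lay around 0 min and the HMF arrays far below it.

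Also called were *ARG5,6*, whose product makes the acetylglutamate kinase and reductase (-2.21 ± 0.32), the argininosuccinate lyase *ARG4* (-2.20 ± 0.28) and the ornithine acetyltransferase *ARG7* (-1.43 ± 0.22). *ARG8* (-1.45) and the mitochondrial ornithine carrier *ORT1* (-1.29) each had an adjusted p of 0.052. *ARG2*, the acetylglutamate synthase at the head of the pathway, was the least lowered at -0.70 (adjusted p = 0.23).

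Other pathways followed in part. Over the 7 lists of amino acid synthesis outside sulfur, 15 of 69 genes were called lower (1.50% of all genes) and none higher. The median difference was -0.79. In histidine synthesis 3 of 7 were called lower (1.50% of all genes). *HIS4*, which carries 3 activities of the pathway, led them at -1.51 and -1.79 with HMF against 0.98 and 0.17 (-2.23 ± 0.38, adjusted p = 0.027). *HIS1*, the first enzyme, had -2.28 and -1.50 against -0.27 and 0.48 (adjusted p = 0.034), and *HIS5* a difference of -0.97. Without replicate 1 of the control 1 histidine gene was called, and none without any of the other arrays. *HOM3*, aspartate kinase, was at -1.89 and -1.83 against 0.24 and 0.15 (-2.06 ± 0.21, adjusted p = 0.00599), the only call among 10 genes of homoserine, threonine and serine synthesis.

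In lysine synthesis *LYS4*, homoaconitase (-1.53 ± 0.21), and *LYS2*, aminoadipate reductase (-1.32 ± 0.21), were called of 8 genes, and in the branched-chain pathways *ILV3* (-1.59) and *ILV1* (-1.30) of 11. The lysine calls were lost without either HMF array or replicate 2 of the control, and of the branched-chain genes 1 was called without replicate 1 of HMF and none without the others. *TRP4* (-1.08) was called of 14 genes for aromatic amino acids. The 9 genes for glutamate, glutamine, asparagine and proline had a median of -0.04 and no call. The 21 genes of sulfate assimilation and methionine synthesis had a median of -0.01, with *STR2*, of transsulfuration, called lower (-1.13) and the ATP sulfurylase *MET3* at 1.16 (adjusted p = 0.070).

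Several called genes next to these pathways lay outside the lists. *ARO5* (*YGL117W*), at -3.02 and -2.25 with HMF against 0.68 and -0.02, had the second lowest difference (-2.96 ± 0.45, adjusted p = 0.022). *TMT1*, a trans-aconitate methyltransferase, was at -2.07 ± 0.35 (adjusted p = 0.027). *SAM3*, the S-adenosylmethionine permease, and its neighbor on the chromosome *SAM4*, a homocysteine methyltransferase, were at -1.53 and -1.74 (adjusted p = 0.027 and 0.022).

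Ribosome biogenesis was among the largest lists. Of 112 measured factors, 110 had a negative difference (3170 of all 6387 genes did). At 0.05 before adjustment 81 were lower (10.8% of all genes), and 23 were called lower (1.50% of all genes). The median was -1.22, with quartiles of -1.50 and -0.75. On the deposited values 2 factors were called. *ECM16*, an RNA helicase of the small subunit processome, was at -2.57 and -2.51 with HMF against -0.80 and -0.03 in the control (-2.13 ± 0.27, adjusted p = 0.014). *NOG1*, a GTPase of large subunit assembly, had -2.47 and -2.51 against -0.79 and -0.11 (-2.04 ± 0.33, adjusted p = 0.027).

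*RRB1*, the assembly chaperone of Rpl3p, was at -1.89, *NMD3*, the export adapter of the large subunit, at -1.85, *NOP56*, a box C/D snoRNP protein, at -1.76, and *CBF5*, the pseudouridine synthase of box H/ACA particles, at -1.70. In each of these genes both HMF arrays lay below both control arrays, as in every gene called lower. *NOC4* was the only factor of the list more than 0.1 above 0, and its difference of 1.18 ± 1.33 was not called.

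RNA polymerase I, which transcribes the large ribosomal RNAs, followed the same course. *RPA135*, its second largest subunit, was at -1.98 and -1.97 with HMF against -0.55 and 0.36 in the control (-1.88 ± 0.38, adjusted p = 0.047). *RPA43* (-1.85), *RPA190* (-1.48) and *RPA49* (-1.43) were called too. In all 4 of 10 genes were called lower (1.50% of all genes), and the median was -1.16. None was called without either HMF array or replicate 2 of the control, 4 without replicate 1 of the control and 1 on the deposited values. *RPC40* and *RPC19*, which the enzyme shares with RNA polymerase III, were at -0.88 and -0.63 without being called, and the initiation factor *RRN3* was at 0.85 (adjusted p = 0.44).

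The 2 control arrays differed in these lists. Biogenesis factors had a median of -1.75 and -1.47 on the HMF arrays, -0.87 on replicate 1 of the control and -0.05 on replicate 2. For RNA polymerase I the 4 medians were -1.52, -1.45, -0.66 and 0.13. Replicate 1 of the control thus lay between HMF and 0 min. Without it 34 biogenesis factors were called and their median was -1.61, against 1 and -0.74 without replicate 2 of the control and none without either HMF array.

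**Figure D3:**
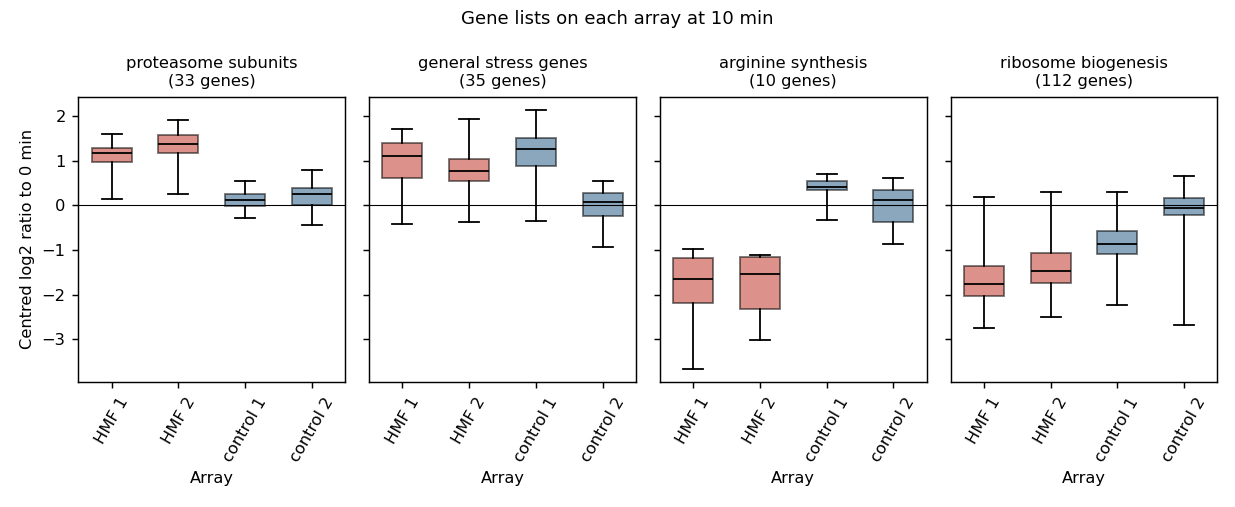
Centred log2 ratios to 0 min of the members of 4 gene lists on each array at 10 min; boxes span the quartiles, the black line is the median and whiskers reach the lowest and highest member. Proteasome and arginine genes separate both HMF arrays from both control arrays, whereas replicate 1 of the control lies near the HMF arrays for general stress genes and between HMF and replicate 2 of the control for ribosome biogenesis.

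More genes of ribosome and RNA production were called outside the lists. *SDA1*, needed for export of the large subunit, was at -2.60 and -2.64 with HMF against -0.67 and -0.41 (-2.08 ± 0.28, adjusted p = 0.017). *DBP2*, an RNA helicase of messenger and ribosomal RNA, was at -2.31 ± 0.28 (adjusted p = 0.014). *MTR4*, the helicase that feeds the nuclear exosome, and *RRP6*, its nuclease, were at -1.74 and -1.05, and the pseudouridine synthases *PUS7* and *PUS1* at -1.70 and -1.35, these 4 being named after their values were seen.

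Cytosolic ribosomal protein genes were lower by less and more evenly. Of 137 measured, 134 had a negative difference (3170 of all 6387 genes). HMF arrays lay below both control arrays in 115 (22.0% of all genes). At 0.05 before adjustment 98 were lower (10.8% of all genes), and 4 were called lower (1.50% of all genes). The median was -0.77, with quartiles of -0.94 and -0.62. The called members were *RPL16A* (-1.36), *RPL11A* (-1.27), *RPL11B* (-1.25) and *RPL17A* (-0.97), and 2 were called without replicate 1 of the control and none without any of the other arrays. *RPL11A* and *RPL11B*, like most of these pairs, are near-identical copies that the probes may not tell apart. Genes of mitochondrial ribosomal proteins had a median of 0.27 (-0.40 on the deposited values) and no call among 67.

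In translation few genes were called. The share called lower over all genes was 1.50%. All 21 cytosolic aminoacyl-tRNA synthetases had negative differences, with a median of -0.69, and *KRS1* for lysine (-1.26), *ILS1* for isoleucine (-1.10) and *YHR020W*, for proline (-1.28), were called, none of them with any array left out. Of 36 translation factors *YEF3*, the fungal elongation factor 3, was called (-1.27 ± 0.22, adjusted p = 0.029), and the median was -0.48.

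**Figure D4:**
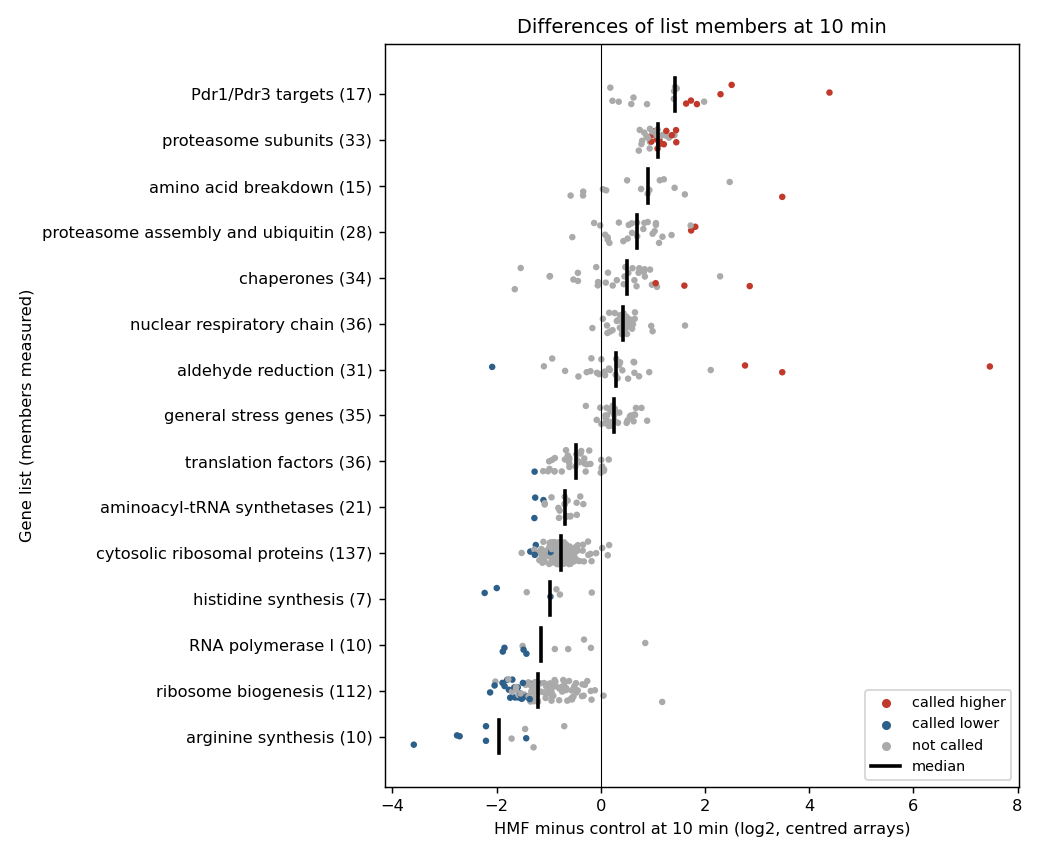
Differences at 10 min (HMF minus control, log2) for the members of 15 gene lists, with the number measured in brackets, called genes in color and the median as a black bar. Proteasome subunits form a narrow block near 1.09, aldehyde reduction genes spread from -2.09 to 7.47 around a median of 0.28, and ribosome biogenesis, RNA polymerase I and arginine genes lie mostly below 0.

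Genes of DNA replication appeared among the lower calls, again named after their values were seen. *POL1*, the catalytic subunit of DNA polymerase alpha, was at -2.08 and -2.33 with HMF against -0.62 and -0.28 (-1.76 ± 0.27, adjusted p = 0.023). *PRI2*, the primase subunit of the same complex, was at -1.46 ± 0.25 and *TOF1*, of the replication fork, at -1.47 ± 0.27. *RNR1*, the large subunit of ribonucleotide reductase, had -2.05 and -2.85 against -1.11 and -0.04 and missed the limit (-1.88 ± 0.42, adjusted p = 0.058).

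Cyclins and histones gave no call. The G1 cyclin *CLN2* was at -1.61 and -2.33 with HMF against -0.66 and -0.68 (-1.30 ± 0.29, adjusted p = 0.055), and the 10 histone genes had a median of -0.51 and negative differences throughout. In the repair list *MAG1*, a DNA glycosylase for alkylated bases, was called higher at 1.96 and 2.04 against 0.48 and 0.29 (1.61 ± 0.26, adjusted p = 0.027).

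Among metabolic genes, *OLE1*, the only fatty acid desaturase of yeast, was at -1.69 and -2.16 with HMF against 0.12 and -0.25 (-1.86 ± 0.23, adjusted p = 0.014). *FET3*, the multicopper oxidase of high-affinity iron uptake, had -2.36 and -2.10 against 0.15 and -0.95 (-1.83 ± 0.35, adjusted p = 0.037), the only call of 14 iron uptake genes. *STE18*, the gamma subunit of the pheromone receptor's G protein, was at -0.29 and -0.10 with HMF but at 3.43 and 2.03 in the control (-2.93 ± 0.42, adjusted p = 0.020). The HMF arrays of *STE18* thus stayed near 0 min and the control arrays did not. Its differences at 30, 60 and 120 min were 0.70, 1.11 and -1.53.

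No gene of the 2 lists of regulators was called. Of 23 stress and drug regulators 5 were higher and none lower at 0.05 before adjustment (6.92% and 10.8% of all genes). Their median was 0.33, and -0.33 on the deposited values. *YAP1* came closest, at 1.63 and 1.60 with HMF against 0.36 and -0.03 (1.45 ± 0.30, adjusted p = 0.052). *PDR3* was at 1.26 and 1.52 against -0.32 and 0.29 (1.40 ± 0.37, adjusted p = 0.086), and *PDR1* at 0.96 ± 0.30 (adjusted p = 0.14). The HMF arrays of *YAP1*, *PDR3* and *PDR1* lay above both control arrays, which was true of 6 of the 23 regulators and of 19.0% of all genes.

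*RPN4*, the activator of proteasome genes, was at 0.70 and 0.94 with HMF against 1.02 and 0.25 in the control. These groups overlapped, and the difference was 0.18 ± 0.39 (adjusted p = 0.88). *HSF1*, the heat shock factor, had 1.54 and 0.25 against 0.50 and -0.74 (1.01 ± 0.56, adjusted p = 0.40). *GCN4*, the activator of amino acid synthesis genes, had 0.18 and -0.70 against 0.55 and -0.31, and its difference was -0.38 ± 0.40 (adjusted p = 0.72). Of 22 regulators of amino acid and ribosome genes, *RAP1*, which binds ribosomal protein promoters, had the lowest difference at -0.80 ± 0.19 (adjusted p = 0.064).

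To see where 10 min differed from later samples, the difference of each gene was compared with the mean of its differences at 30, 60 and 120 min in the same fit. There were 2 arrays per group at 30 and 60 min and 1 at 120 min. No gene passed the adjusted p in limma, and 499 passed 0.05 before adjustment (7.81% of all genes). Without replicate 2 of the control 4 genes passed, none without any of the other 3 arrays, and 2 on the deposited values. The later values below are therefore descriptions.

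The lists differed in their later course. Ribosome biogenesis factors went from a median of -1.22 at 10 min to 0.13, -0.14 and -0.51 at the 3 later times, and 63 of the 112 passed 0.05 for the change before adjustment. RNA polymerase I genes went from -1.16 to 0.15, -0.05 and -0.44. Arginine synthesis stayed low, with medians of -1.96, -1.58, -1.79 and -1.73, and none of its 10 genes did so. Cytosolic ribosomal proteins had -0.77, -1.12, -0.73 and -0.80, also with none of 137.

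Single genes showed the same contrast. *ECM16* went from -2.13 to -0.02 at 30 min, and *SDA1* from -2.08 to 0.12, whereas *ARG3* went from -3.59 to -2.75 and *HIS4* from -2.23 to -2.76. Among the 23 biogenesis factors called at 10 min, each had a 30 min difference no more than 50% of that at 10 min, as did 2 of the 15 called genes of amino acid synthesis. The same was true of 58 of the 96 genes called lower and of 3405 of the 6387 genes tested. Called genes were chosen at 10 min, which favors a smaller value later.

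On the higher side, the Pdr1p and Pdr3p list kept medians of 1.42, 1.34, 1.64 and 1.43 and the proteasome subunits had 1.09, 1.09, 0.95 and 0.55. Chaperones had 0.50, -0.07, 0.32 and 0.46 and general stress genes 0.26, -0.81, -0.81 and -0.25. *SSA4* went from 2.86 to 0.20 at 30 min, *JEN1* from 2.07 to -0.54, *ADR1* from 1.69 to -0.07 and *CYB2* from 1.20 to -0.16. *ARI1* went the other way, from 3.48 to 4.73 at 30 min and 5.02 at 120 min, with an unadjusted p of 0.0048 for the change (limma, adjusted p = 0.37).

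**Figure D5:**
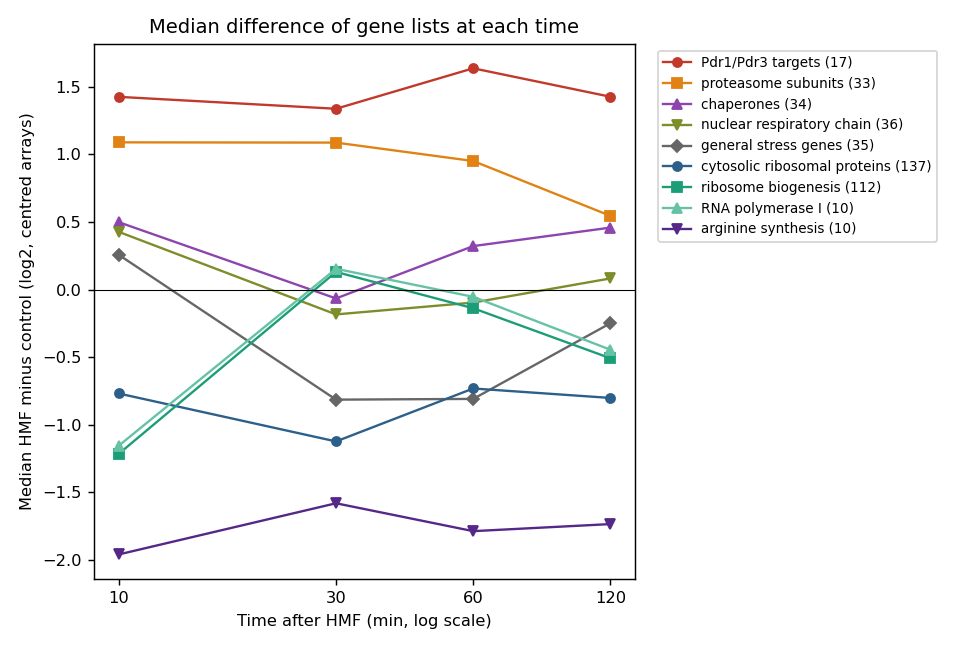
Median difference (HMF minus control, log2, centred arrays) of 9 gene lists at 10, 30, 60 and 120 min on a logarithmic time axis, with 2 arrays per group except at 120 min, where there is 1. Ribosome biogenesis and RNA polymerase I lie at -1.22 and -1.16 at 10 min and close to 0 at 30 min, while arginine synthesis and the Pdr1p and Pdr3p targets hold their level.

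In the order of the R64 reference annotation, 5 of 5823 adjacent pairs of measured genes had both members called. In 4 of these both were lower: *RPA43* with *RPA190* and *SAS2* with *ECM16*, each transcribed away from the other, and *SAM3* with *SAM4* and *GRX4* with *TMT1*, each in one direction. In the fifth, the divergent pair *RPL11A* and *PRE2*, the ribosomal protein gene was lower (-1.27) and the proteasome subunit higher (1.21).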

How the data were processed

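Log2 ratios of test (Cy3) over 0 min reference (Cy5) were deposited, 1 for each of 6387 genes and 14 arrays. The authors took median spot signals less background from GenePix, scaled every slide by a spike-in control gene and used GeneSpring. That leaves the level of all genes free between arrays. Signal intensities were not used here. Symbols of 5840 genes come from the R64 RefSeq annotation, and 547 keep systematic names.

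Arrays were centred on their medians and fitted with limma 3.58.1 in R 4.3.3, with 1 mean for each of 8 groups of treatment and time, 6 residual and 2.53 prior degrees of freedom. All arrays share the spread. The procedure was tested on simulated data whose noise was independent between arrays. That test does not cover deviations shared by same-numbered arrays. The 2 replicates per group limit the precision, and p-values measure the spread between these samples. Members and lists were chosen with earlier results of these data known. Genes named were the 15 highest and 15 lowest calls whose groups do not overlap, called list members or otherwise the 4 largest differences of a list, and regulators. Other genes named were chosen after their values were seen. Alternatives were other scalings, arrays, blocks and moderation. Promoter sequences were not used here, so motifs were not examined. 1 gene among the 15 lowest calls is not reported here.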

Additional observations from a re-analysis of the deposited data

How the results depend on the processing

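All 137 called genes had the same sign in each fit run here, but for most fits this was fixed in advance. With 1 array left out it follows from HMF and control arrays that do not overlap. On the deposited values each difference shifts by -0.67, while the smallest higher call was 0.97. Other fits of the same centred arrays leave the differences unchanged. The count of 137 calls (41 higher, 96 lower) became 43 (6 and 37) on the deposited values, 10 (6 and 4) after quantile normalization and 0 with the 4 arrays at 10 min alone, where 678 genes passed 0.05 in limma before adjustment. Of the 137, 27 were called on the deposited values and 10 after quantile normalization. Leaving out 1 of the 4 arrays gave between 11 and 110 calls, 6 to 20 higher and 5 to 90 lower. For the change from 10 min to later times, 0 to 4 genes passed with 1 array left out and 2 on the deposited values. A robust fit gave 133 calls, 2-fold as a further limit 133, and a fit without moderation 174. The causes were not tested, apart from the fewer arrays in some fits.

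The labels give HMF and control arrays the same replicate numbers without stating a pairing. With a replicate block 456 genes were called (147 higher, 309 lower), and with a replicate block within each time 286 (95 and 191), which held 137 and 129 of the calls. Same-numbered deviations of HMF and control correlated over genes with r = 0.307 at 10 min, 0.283 at 30 min and 0.171 at 60 min, which is a hint from the data and not from the design. Of the genes named and not called in the main fit, 17 passed with the replicate block. Among them were *YAP1* (adjusted p = 0.031), *PDR3* (0.018), *RAP1* (0.036), *PDR12* (0.020), *HSP26* (0.019), *TPO1* (0.039), *TPO4* (0.042), *ARG8* and *ORT1* (0.025), *CAR1* (0.028), *CYC7* (0.039), *RNR1* (0.037) and *CLN2* (0.035).

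Uncalled genes near 0 changed sign. *RPN4* was at -0.49 on the deposited values and -0.022 after quantile normalization, and between -0.20 and 0.57 with 1 array left out. *PDR10* was at -0.49 and -0.073, and between -0.12 and 0.48. *UBI4* was at 0.043 after quantile normalization and between -0.25 and 0.23 with 1 array left out, and *GCN4* between -0.82 and 0.06. On the deposited values the median of aldehyde reduction genes was -0.38 and that of chaperones -0.17.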
